A study of Homo sapiens with 6 samples.

Results

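The SLC2A genes encode the GLUT proteins, membrane carriers that let glucose and related sugars cross a membrane down their concentration gradient. The 10 members described here were the rows of a deposited gene count table named SLC2A1, SLC2A2, SLC2A3, SLC2A4, SLC2A6, SLC2A8, SLC2A9, SLC2A10, SLC2A12 and SLC2A14, out of 16720 named rows. They were chosen by their counts in the 2 groups, that is, their shares of all SLC2A counts and their difference between control and knockout cells, so their values in this comparison are a description and carry no test. The table held 4 further SLC2A rows, SLC2A5, SLC2A7, SLC2A11 and SLC2A13, and the 10 members held 84.9% to 94.1% of the counts of all 14 rows in each library.

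The study asked what the transcription factor RFX6, known for its role in the endocrine pancreas, does in liver cancer cells. RNA was sequenced from Hep3B, an established human hepatocellular carcinoma line, in 3 libraries of cells given a control guide RNA (sgControl, genotype WT) and 3 libraries of cells in which RFX6 had been knocked out with CRISPR-Cas9 (sgRFX6). By the study's methods the guides came on a lentiviral vector that also carries Cas9, the cells were selected with puromycin, single-cell-derived clones were expanded, and the line was grown in medium with fetal bovine serum. No source says whether the 3 libraries of a group came from separate clones or cultures. Differences between clones and the loss of RFX6 thus cannot be told apart, and the replicate spread may be technical. All 3 sgRFX6 columns are headed sg3, a name that the study's methods give to an RFX6 guide. If they rest on that guide alone, its other effects and the loss of RFX6 cannot be told apart either.

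Libraries held 16730374 to 25070770 counts, and 3 counts, taken as the floor of detection, corresponded to 0.12 to 0.179 CPM, the usual count scaled to the size of its library. RFX6 itself had 117, 144 and 170 counts in sgControl against 69, 59 and 77 in sgRFX6, a 1.77-fold lower level without overlap (edgeR quasi-likelihood test, adjusted p = 0.142). HNF4A and FOXA2, transcription factors of hepatocytes, were well above the floor in all libraries, whereas AFP, the fetal liver albumin, had only 39 to 51 counts in sgControl and 201 to 353 in sgRFX6 (adjusted p = 0.00254, edgeR). FGB, a fibrinogen chain, fell from 464, 850 and 522 counts to 93, 54 and 142 (log2 difference -2.45, adjusted p = 0.00417, edgeR), and APOB was 2.45-fold lower without overlap (adjusted p = 0.116, edgeR). The summed level of the 10 hepatocyte markers was 352 to 399 CPM in sgControl and 291 to 308 CPM in sgRFX6. HNF4A and FOXA2 alone averaged 151 and 94.4 CPM in sgControl and 126 and 86.7 CPM in sgRFX6. The median log2 difference of the list was 0.12. TF was 2.08-fold higher in sgRFX6 without overlap (adjusted p = 0.189, edgeR). ALB, APOA1, TTR and SERPINA1 had positive estimates with overlapping ranges (log2 difference 0.12 to 0.74). Of 8 fibroblast markers, FAP was at or below the floor and the collagen genes COL1A1, COL1A2 and COL3A1 fell (COL1A1 not past the threshold without sgControl replicate 3 or sgRFX6 replicate 1), while LUM, the most abundant of the list in sgRFX6, had 408, 616 and 388 counts against 392, 327 and 1205 (log2 difference 0.63, adjusted p = 0.53, edgeR). In sgRFX6, COL1A2 had 2, 2 and 4 counts and COL3A1 had 2, 0 and 0, so the low-count filter kept both through sgControl alone. The summed fibroblast level was 51.2 to 60.9 CPM in sgControl and 21.4 to 56.2 CPM in sgRFX6. None of the 9 tested endothelial, leukocyte and neuronal markers passed edgeR's threshold, against 3 at an unadjusted p under 0.05, 1 by DESeq2 and 5 by limma-voom. Their part in the values below was not tested.

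GLUT proteins fall into classes. Class I comprises GLUT1 (SLC2A1), which carries basal glucose uptake in most cells, GLUT2 (SLC2A2), the low-affinity carrier of hepatocytes and pancreatic beta cells, GLUT3 (SLC2A3), the high-affinity carrier of neurons, GLUT4 (SLC2A4), the insulin-responsive carrier of muscle and fat, and GLUT14 (SLC2A14), a duplicate of GLUT3. GLUT9 (SLC2A9) belongs to class II and is best known as a urate carrier, and GLUT6, GLUT8, GLUT10 and GLUT12 belong to class III, several of which sit mainly on membranes inside the cell. Normal hepatocytes rely on GLUT2, and liver cancers are known for a higher use of GLUT1.

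SLC2A3 and SLC2A14 lie next to each other on chromosome 12 and are near-identical copies, which bears on whether reads can be assigned to one of them. In the GENCODE release 29 annotation of GRCh38, SLC2A3 spans chr12:7919230-7936275 and SLC2A14 spans chr12:7812512-7891148, both on the minus strand. Their coding sequences were identical at 96.8% of 1488 aligned bases, with 47 differences and a longest identical run of 137 bases. The gap-free 150-base window of the aligned coding sequences with the most differences, 11, is printed here from the GENCODE transcripts. Capitals mark the bases that differ. Noncoding parts of the transcripts were not searched for this window. The SLC2A3 window is at chr12:7930482-7930631 and the SLC2A14 window at chr12:7828706-7828855, each within 1 coding exon and written 5′ to 3′ on the minus strand.
SLC2A3: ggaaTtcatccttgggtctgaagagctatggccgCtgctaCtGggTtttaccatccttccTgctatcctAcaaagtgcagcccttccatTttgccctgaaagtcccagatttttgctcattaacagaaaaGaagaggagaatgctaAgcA
SLC2A14: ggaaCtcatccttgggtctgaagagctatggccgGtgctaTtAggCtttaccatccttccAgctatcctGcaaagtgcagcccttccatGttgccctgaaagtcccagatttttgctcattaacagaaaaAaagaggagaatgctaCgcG

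Of all distinct 100-base stretches in the annotated SLC2A14 transcripts, 4.24% also occurred in an SLC2A3 transcript. For 50-base stretches the share was 16%, and for 150-base stretches 1.03%. No other pair of members shared a stretch of 50 bases, and the next most similar pair, SLC2A1 and SLC2A4, had 70.2% identical coding bases. How reads that match both copies were counted is not given in the sources used here, so the counts of SLC2A14 in particular are uncertain.

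**Figure D1:**
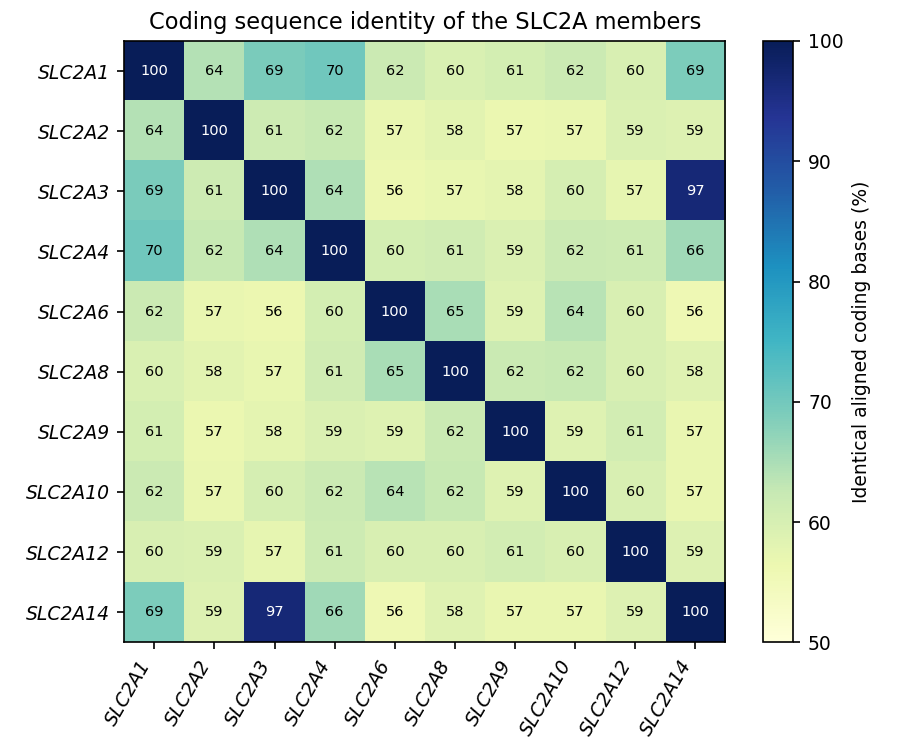
Share of identical bases (%) in pairwise alignments of the coding sequences of the 10 members, 1 GENCODE transcript per gene, with colour from 50 to 100%. SLC2A3 with SLC2A14 stands at 96.8%, and the next pair, SLC2A1 with SLC2A4, at 70.2%.

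SLC2A1 (GLUT1) and SLC2A8 (GLUT8) were the most abundant members, and SLC2A3 (GLUT3), a substantial member in sgControl, was all but missing in sgRFX6. SLC2A12 and SLC2A14, both low in sgControl, were at or under the floor in sgRFX6 as well. SLC2A8 and SLC2A6, abundant in both groups, and the low members SLC2A4 and SLC2A10 had overlapping values in the groups. SLC2A2, the hepatocyte carrier, and SLC2A9 were at or below the floor throughout.

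Among the class I carriers, SLC2A1 (chr1:42925375-42959176, minus strand) had 2028, 1931 and 2591 counts in sgControl libraries 1 to 3 against 2971, 2737 and 2560 in those of sgRFX6. Scaled by depth these were 97.7, 78.2 and 112 CPM against 148, 172 and 116 CPM. The groups did not overlap on that scale, the lowest sgRFX6 library standing just above the highest sgControl library. The means were 95.9 ± 16.9 and 145 ± 27.9 CPM (SD, n = 3 each), a 1.51-fold higher level in sgRFX6 with a log2 difference of 0.60 ± 0.21 (standard error). In bulk RNA, more or fewer cells that express a gene and more or less RNA per cell cannot be told apart.

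SLC2A3 had 816, 681 and 1161 counts in sgControl against 0, 0 and 2 in sgRFX6. The depth-scaled levels in sgControl were 39.3, 27.6 and 50.1 CPM, a mean of 39.0 ± 11.3 (SD, n = 3), and every sgRFX6 library was under the floor. Set against a floor of 3 counts per library, the SLC2A3 level in sgRFX6 was at least 247-fold lower. Its neighbour and copy SLC2A14 had 12, 23 and 24 counts in sgControl against 1, 0 and 1 in sgRFX6, at least 5.37-fold lower. The 2 genes were thus low in the same libraries, and the smaller bound of SLC2A14 reflects its lower control level. SLC2A14 held 1.45%, 3.27% and 2.03% of the counts of the pair in the 3 sgControl libraries, with exact binomial 95% intervals of 0.751 to 2.52%, 2.08 to 4.86% and 1.3 to 3%. These intervals, like the others below, cover counting error only.

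SLC2A2 (chr3:170996348-171026750, minus strand) had no count in 5 of the libraries and 1 count in the sgRFX6 library 3. In sgControl, 0 of 23094970 counts in the third library allows a level of up to 0.13 CPM. SLC2A4 (chr17:7281667-7288257, plus strand) had 13, 23 and 9 counts in sgControl against 14, 6 and 2 in sgRFX6. The ranges overlapped, and the log2 difference of -0.75 was close to its standard error of 0.65. With limma-voom and sample quality weights it was 0.33, so no direction is given for this gene.

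**Figure D2:**
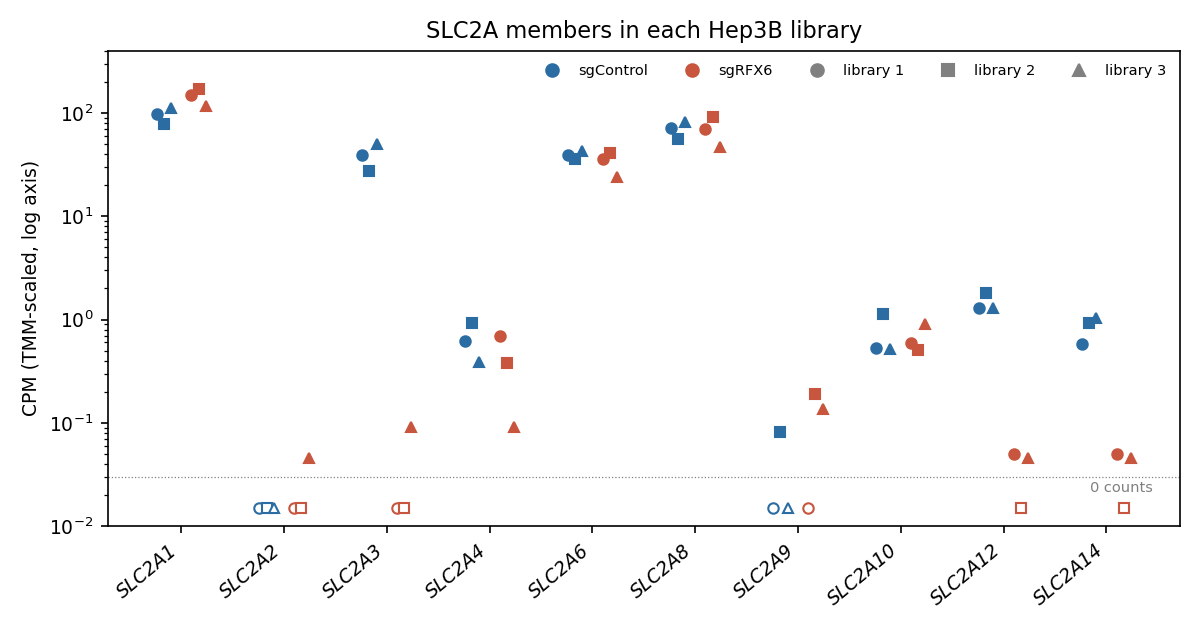
Level of each member in each library in TMM-scaled CPM on a log axis, with sgControl in blue, sgRFX6 in red, marker shapes for library numbers and open symbols under the dotted line for 0 counts. SLC2A3, SLC2A12 and SLC2A14 have sgRFX6 points at or near 0 counts, the SLC2A1 points of sgRFX6 lie at 116 to 172 CPM above those of sgControl, and SLC2A6 and SLC2A8 overlap.

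Of the class III carriers, SLC2A12 (GLUT12, an insulin-responsive relative of GLUT4; chr6:133988697-134052636, minus strand) had 27, 45 and 30 counts in sgControl against 1, 0 and 1 in sgRFX6. The groups did not overlap, and the level in sgRFX6 was at least 9.33-fold lower against 3 counts per library. The annotated transcripts of SLC2A12 share no 50-base stretch with those of SLC2A3. SLC2A10 (GLUT10, the gene of arterial tortuosity syndrome; chr20:46709487-46736347, plus strand) had 11, 28 and 12 counts in sgControl against 12, 8 and 20 in sgRFX6. Its ranges overlapped, with a log2 difference of -0.11 ± 0.47 (standard error) whose sign turned positive under 3 alternatives.

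SLC2A8 (GLUT8, held inside the cell by a dileucine motif; chr9:127397138-127408424, plus strand) had 1470, 1369 and 1913 counts in sgControl against 1411, 1462 and 1036 in sgRFX6. In CPM these were 70.8, 55.4 and 82.6 against 70.1, 91.9 and 47.1, so the highest and the lowest of the 6 values were both sgRFX6 libraries. The log2 difference was 0.00 ± 0.26 (standard error). SLC2A6 (GLUT6, found on lysosomal membranes; chr9:133471095-133479137, minus strand) stood at 39.0, 35.9 and 42.4 CPM in sgControl and 35.6, 40.9 and 24.1 CPM in sgRFX6. Its log2 difference was -0.22 ± 0.23 (standard error), with sgRFX6 libraries 1 and 3 under the sgControl range and library 2 within it. SLC2A9 (chr4:9771153-10054936, minus strand) had 0, 2 and 0 counts in sgControl against 0, 3 and 3 in sgRFX6, and no fold is given for it.

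The filter on low counts kept 8 members, and SLC2A3, SLC2A12 and SLC2A14 passed it through the sgControl libraries alone. Across the table, 480 of 12839 tested genes (3.74%) passed edgeR's adjusted p threshold of 0.05, and 23.1% had groups that did not overlap. Of the 8 tested members, 3 passed that threshold and 4 did not overlap, 3 lower and 1 higher in sgRFX6. The backgrounds in 1 direction were 11.2% lower and 12.0% higher without overlap. The median log2 difference of the tested members was -0.49 beside 0.02 for all tested genes. The same contrast chose the members, so nothing is read from these counts or from this median.

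**Figure D3:**
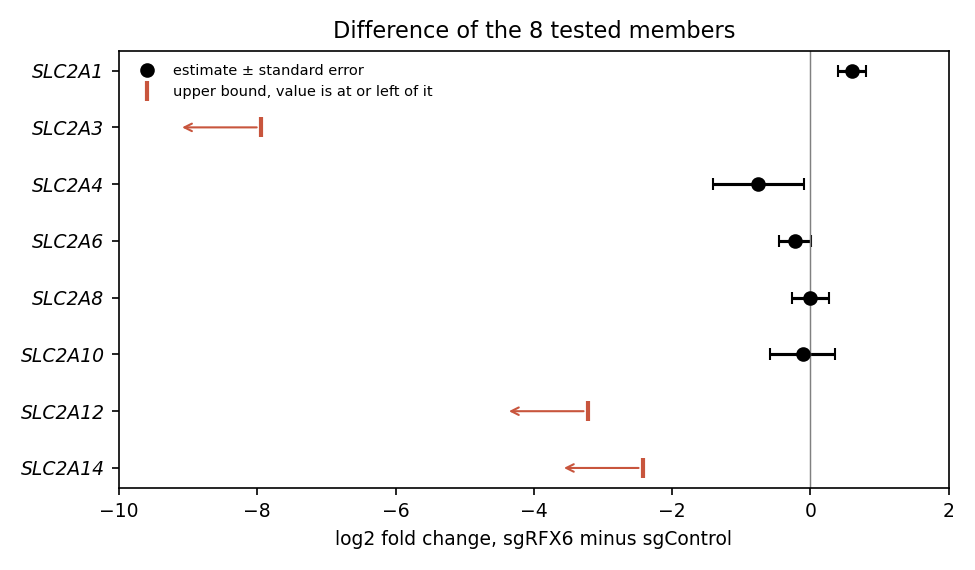
Log2 difference (sgRFX6 minus sgControl) of the 8 tested members, as the edgeR estimate with its standard error (points) or, where all sgRFX6 libraries were at or under 3 counts, as an upper bound (red bar with an arrow). SLC2A1 stands at 0.60, SLC2A8 at 0.00, and the bounds are -7.95 for SLC2A3, -3.22 for SLC2A12 and -2.43 for SLC2A14.

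The order of the members was compared per length, as TMM-scaled CPM per kb of annotated exon. In sgControl, SLC2A1 stood at 20.3 ± 3.58 and SLC2A8 at 17.7 ± 3.46 (SD, n = 3), and their ranges overlapped. Their order in sgControl depends on the length used: per kb of the longest coding transcript, SLC2A8 held 36.8% to 38.5% of the summed level and SLC2A1 30.8% to 31.2%, whereas in sgRFX6 SLC2A1 led by either length. SLC2A6 followed at 11.0 ± 0.92 and SLC2A3 at 6.33 ± 1.83, each separated from its neighbours in the order. SLC2A12 came next at 0.33 ± 0.068, clear of both neighbours, and SLC2A4, SLC2A14 and SLC2A10 lay between 0.145 and 0.16 with overlapping ranges.

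In sgRFX6 the order began with SLC2A1 at 30.8 ± 5.91, SLC2A8 at 17.7 ± 5.71 and SLC2A6 at 9.47 ± 2.42 (CPM per kb of annotated exon, SD, n = 3). None of these 3 ranges overlapped at that length. SLC2A10 and SLC2A4 followed at 0.134 and 0.0958 with overlapping ranges, and the other 5 members were at or under the floor.

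Summed over the 10 members, the level was 56.8, 46.3 and 65.5 CPM per kb in sgControl and 59.5, 71.6 and 43.7 in sgRFX6. Both the highest and the lowest sum were sgRFX6 libraries, and the means of 56.2 ± 9.59 and 58.2 ± 14.0 (SD, n = 3) gave a log2 ratio of 0.05. The SLC2A1 level was higher by 10.4 CPM per kb in sgRFX6, while the SLC2A3 level fell by 6.33. With SLC2A3 and SLC2A14 left out, the sums were 49.7 ± 7.76 and 58.2 ± 14.0, a log2 ratio of 0.23.

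The make-up of the sum differed between the groups. SLC2A1 made up 36.4%, 35.7% and 36.1% of the summed level per kb in the sgControl libraries and 52.5%, 50.9% and 56.4% in the sgRFX6 libraries. SLC2A3 made up 11.2%, 9.66% and 12.4% in sgControl and at most 0.0338% in sgRFX6. The share of SLC2A8 overlapped between the groups, 30.5% to 32.1% against 27.4% to 32.7%, and that of SLC2A6 was 18.3% to 21.9% against 15.6% to 16.9%. Shares of one sum are tied to each other, so a smaller share of SLC2A3 leaves larger shares to the other members together.

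**Figure D4:**
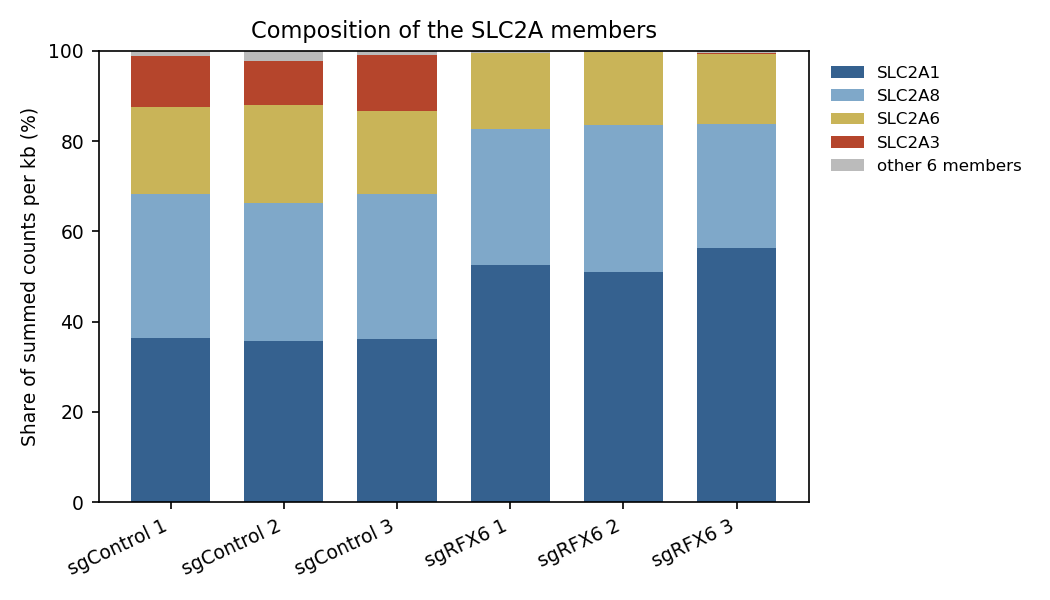
Share (%) of each abundant member in the summed counts per kb of the 10 members, 1 bar per library, with the other 6 members in grey. SLC2A3 takes 9.66% to 12.4% of the sgControl bars and is missing from the sgRFX6 bars, where SLC2A1 takes 50.9% to 56.4%.

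As shares of raw counts, SLC2A1 made up 39.1% (exact binomial 95% interval 37.8 to 40.4%), 38.7% (37.4 to 40.1%) and 38.5% (37.4 to 39.7%) of the members' 5186, 4989 and 6723 counts in sgControl. In sgRFX6 it made up 57.9% (56.6 to 59.3%), 56.2% (54.8 to 57.6%) and 61.6% (60.1 to 63.1%) of 5127, 4866 and 4157 counts. The SLC2A3 share was 15.7%, 13.7% and 17.3% of the raw counts in sgControl, and in sgRFX6 library 1 its 0 of 5127 counts had an interval reaching 0.0719%.

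SLC2A1, SLC2A6 and SLC2A8 moved together among the libraries of each group. In sgControl all 3 were highest in library 3 and lowest in library 2, and in sgRFX6 all 3 were highest in library 2 and lowest in library 3. The exons of SLC2A6 and SLC2A8 hold 63.7% and 62.6% G and C bases and those of SLC2A1 54.8%, against 40.8% for SLC2A12. Between sgRFX6 libraries 3 and 2 the log2 differences were -0.56 for SLC2A1, -0.76 for SLC2A6 and -0.96 for SLC2A8. After removal of each library's trend of level with GC content they were -0.17, -0.12 and -0.34. The same removal lowered the SD of log2 CPM over the sgRFX6 libraries from 0.39 to 0.07 for SLC2A6 and from 0.48 to 0.20 for SLC2A8, but raised it over the sgControl libraries from 0.12 to 0.28 and from 0.29 to 0.45. The log2 difference of SLC2A1 between the groups was 0.60 with and without the trend.

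Of the 4 SLC2A rows outside the members, SLC2A5 differed without overlap. SLC2A5, the fructose carrier GLUT5, fell from 23, 29 and 41 counts to 4, 5 and 7, a log2 difference of -2.27 ± 0.43 (standard error) or a 4.82-fold lower level (edgeR adjusted p = 0.0226). It did not pass without sgControl replicate 3 or sgRFX6 replicate 1 or 2 (adjusted p up to 0.12, edgeR). SLC2A13, the proton-coupled myo-inositol carrier, had 313, 253 and 300 counts in sgControl against 296, 212 and 631 in sgRFX6, with the high value in sgRFX6 library 3, the library in which SLC2A1, SLC2A6 and SLC2A8 were lowest. SLC2A11 had 90 to 163 counts in all libraries, and SLC2A7 had at most 1.

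Within 500 kb of the SLC2A3 start, the filter on low counts kept 5 of the 9 genes with any count, SLC2A14 left aside. The kept genes were above the floor in all libraries, and those that the filter removed are not described. The 5 genes had a median log2 difference of 1.07. FOXJ2, a forkhead factor whose start lies 96.4 kb away, had 1131, 1410 and 1452 counts in sgControl against 1110, 910 and 1015 in sgRFX6, a log2 difference of -0.14 ± 0.17 (standard error). NECAP1, an adaptor of clathrin-coated vesicles at 141 kb, differed by 0.08 ± 0.21. The ranges of both genes overlapped between the groups.

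On the other side of SLC2A3, CD163, the haemoglobin scavenger receptor, rose from 20, 11 and 18 counts to 66, 57 and 91, a log2 difference of 2.33 ± 0.37 (standard error; edgeR adjusted p = 0.0107). Its neighbour CD163L1 rose from 106, 158 and 119 counts to 262, 262 and 356, a log2 difference of 1.45 ± 0.24 (edgeR adjusted p = 0.0121). CD163 did not pass without sgControl replicate 3 (adjusted p = 0.0594, edgeR), and CD163L1 did not pass without sgControl replicate 1 or 3 (adjusted p up to 0.0898, edgeR). FAM90A1, on the same side as FOXJ2 at 291 kb, had 7 to 11 counts against 12 to 21 (edgeR adjusted p = 0.23). CD163 (chr12:7470813-7503893) and CD163L1 (chr12:7346685-7479897) are annotated on the same strand with overlapping spans, so their counts may not be independent. How reads in the overlap were counted is not given in the sources used here. These 2 higher genes of 5 stand beside 1.92% of all tested genes called higher in sgRFX6, and no local excess is read from them. The median over so few genes depended on the window and on the filter.

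**Figure D5:**
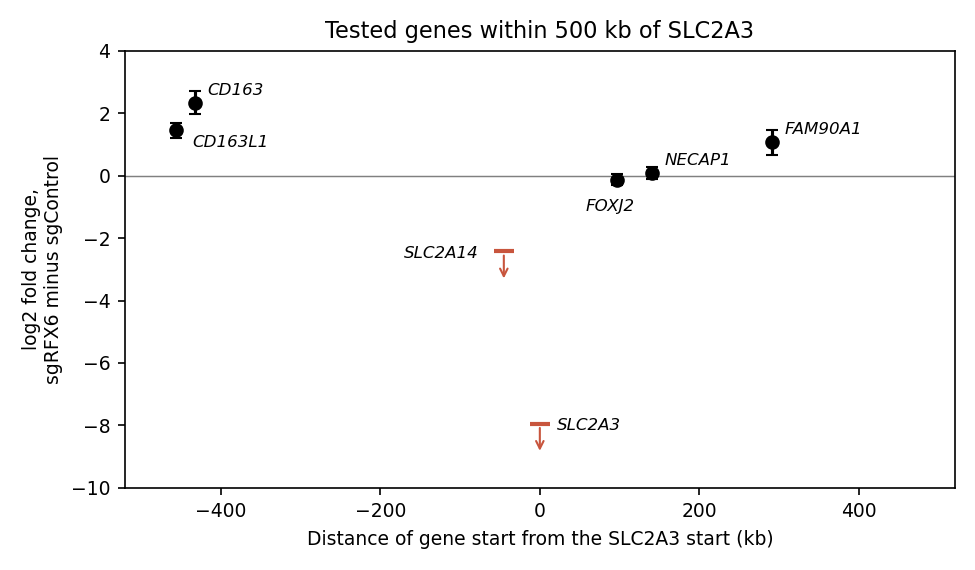
Log2 difference (sgRFX6 minus sgControl) of the tested genes within 500 kb of SLC2A3 against the distance of their starts in kb, with negative distances toward lower coordinates, edgeR estimates with standard errors in black and upper bounds of the 2 members in red. FOXJ2 and NECAP1 lie near 0 at 96.4 and 141 kb, and CD163 and CD163L1 lie above at 2.33 and 1.45.

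Around the members other than SLC2A3 and SLC2A14, at most 2 tested genes within 500 kb of each passed the threshold. The share over all tested genes was 3.74%, and a difference from that share was not tested. Near SLC2A12 only 2 genes were tested. One of them, SGK1, a serum- and glucocorticoid-induced kinase, fell from 802, 632 and 609 counts to 189, 104 and 223 (log2 difference -1.79 ± 0.27, edgeR adjusted p = 0.00894), and TBPL1 differed by -0.43 (adjusted p = 0.496, edgeR). Near SLC2A6, 1 of 14 tested genes passed, ADAMTSL2, with a log2 difference of -3.01 (edgeR adjusted p = 0.004), and near SLC2A8, 1 of 14, ANGPTL2, with -1.55 (edgeR adjusted p = 0.00348). Near SLC2A4, ATP1B2 and TNFSF13 rose among 41 tested genes (edgeR adjusted p = 0.0263 and 0.0211), and neither passed without sgControl replicate 1 or 3 or sgRFX6 replicate 1 or 2 (adjusted p up to 0.127). ATP1B2 had 0, 5 and 0 counts in sgControl, so the filter on low counts kept it through the sgRFX6 libraries alone. Of the 13 near SLC2A1 none passed edgeR's threshold, against 1 at an unadjusted p under 0.05, 0 by DESeq2 and 2 by limma-voom. The genes named in this paragraph were chosen after their values were seen.

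RefSeq gave the 250 bases upstream of a start for 8 members, in 9 windows. A RefSeq start can lie inside the gene as GENCODE draws it. All 250 bases of the SLC2A1 and SLC2A14 windows lay in annotated GENCODE exons of the gene. So did 162 bases of the SLC2A10 window and 118 of 1 SLC2A9 window. These windows do not lie wholly before the GENCODE start, which limits the reading of their motif counts. SLC2A3 and SLC2A4 had no entry. The windows were searched on both strands for 5 short motifs, namely ACGTG (the core bound by hypoxia-inducible factors), CACGTG (an E-box, which contains the former), GGGCGG (a GC box), CCAAT, and GTTGCC (letters from the X-box, the kind of element that RFX factors bind). The shares of all 35116 upstream windows with a match were 18.5%, 6.34%, 42.6%, 32% and 10.2% in that order.

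The window of SLC2A12 held none of the 5 motifs, and 46% of its bases were G or C against a median of 58% over all windows. It is printed because SLC2A12 was at or under the floor in sgRFX6 only and has no near-identical copy among the members. It lies at chr6:134052625-134052874 on GRCh38 and is written 5′ to 3′ on the minus strand, with no capitals because no motif matched.
SLC2A12: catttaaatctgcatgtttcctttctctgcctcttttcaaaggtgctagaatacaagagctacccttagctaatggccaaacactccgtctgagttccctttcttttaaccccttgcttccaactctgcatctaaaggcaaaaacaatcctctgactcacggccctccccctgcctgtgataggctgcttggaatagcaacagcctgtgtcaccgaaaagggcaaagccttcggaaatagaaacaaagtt

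The windows of the 3 abundant members SLC2A1, SLC2A6 and SLC2A8 all held both GC boxes and a CCAAT match, with 2, 4 and 6 GC boxes. Their bases were 72.4%, 76.8% and 65.2% G or C, and those of the low member SLC2A10 76.8%, against the median of 58%. A link of the matches with GC content or with the level of a member was not tested. SLC2A14 held 1 GC box and 1 ACGTG match, SLC2A10 held 3 GC boxes and 1 ACGTG match, and the windows of SLC2A2 held none of the 5. Only 1 of the 2 SLC2A9 windows held the GTTGCC letters. A match is a description of the letters in a window and not a binding site.

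Few genes of glucose handling outside the family passed the test. Of 110 genes in 4 lists, 97 were tested and 4 passed edgeR's threshold (4.12% beside 3.74% of all tested genes), 2 higher and 2 lower. Among 20 sugar and lactate carriers outside SLC2A, 13 were tested and 2 rose, with a list median of 0.10. SLC5A1, the intestinal sodium-coupled glucose carrier SGLT1, rose from 6, 9 and 3 counts to 36, 20 and 37, a log2 difference of 2.57 ± 0.45 (standard error; edgeR adjusted p = 0.0173). SLC37A1, a carrier of phosphorylated sugars in the endoplasmic reticulum, rose from 361, 519 and 391 counts to 949, 575 and 719, a log2 difference of 1.07 ± 0.22 (edgeR adjusted p = 0.0337). SLC5A1 did not pass without sgControl replicate 1 or 3 or sgRFX6 replicate 1, and SLC37A1 did not pass without any of the sgControl replicates or sgRFX6 replicates 1 or 2, adjusted p reaching 0.0772 and 0.169 over all alternatives.

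None of the 13 fell by edgeR, with 0 lower at an unadjusted p under 0.05, 0 by DESeq2 and 2 by limma-voom. The lactate exporter SLC16A3 (MCT4) had 4868, 7196 and 5652 counts in sgControl against 4638, 3382 and 3209 in sgRFX6, a log2 difference of -0.39 (edgeR adjusted p = 0.43). SLC16A1 (MCT1), the chaperone BSG and the myo-inositol carrier SLC5A3 differed by -0.19, 0.11 and -0.29, with adjusted p (edgeR) of 0.825, 0.893 and 0.764.

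Hexose phosphorylation and glucose release followed 24 genes, of which 18 were tested. None passed edgeR's threshold, against 6 at an unadjusted p under 0.05, 3 by DESeq2 and 9 by limma-voom, and the median log2 difference was -0.03. HK1, the widely expressed hexokinase, had 5256, 7473 and 6732 counts in sgControl against 3952, 2849 and 2933 in sgRFX6, a log2 difference of -0.74 ± 0.19 (edgeR adjusted p = 0.0792). HKDC1, a hexokinase domain protein, had 3639, 3809 and 4088 counts against 5446, 4574 and 5017, a log2 difference of 0.63 ± 0.17 (edgeR adjusted p = 0.0794). The 2 genes thus differed in opposite directions without overlap and without passing the threshold. HK2 had 3 to 18 counts and was not tested, and SLC37A4, the glucose 6-phosphate carrier of glucose release, differed by 0.41 (edgeR adjusted p = 0.391).

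Of 39 genes for the trafficking and turnover of glucose transporters, 38 were tested and 1 fell, with a median log2 difference of 0.02. SORT1, the sorting receptor sortilin of GLUT4 vesicles, fell from 790, 1101 and 937 counts to 320, 214 and 441, a log2 difference of -1.32 ± 0.22 (edgeR adjusted p = 0.0132). It did not pass without sgControl replicate 3 or sgRFX6 replicate 1, adjusted p reaching 0.0845. TXNIP, an arrestin-like protein that removes GLUT1 from the cell surface and whose gene responds to glucose, had 67, 1163 and 76 counts in sgControl against 705, 165 and 467 in sgRFX6. A single sgControl library was thus above all others, and the log2 difference of 0.31 had a standard error of 0.95.

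Of 30 transcription factors known for SLC2A genes, 28 were tested and 1 fell, with a median of -0.17. MYCN, a MYC family factor, fell from 147, 194 and 195 counts to 14, 22 and 17, a log2 difference of -3.05 ± 0.35 (edgeR adjusted p = 0.00261), and passed under all 14 alternatives. HIF1A and EPAS1, the hypoxia-inducible factors, differed by -0.25 and 0.44 (edgeR adjusted p = 0.847 and 0.23). The liver factors HNF4A and MLXIPL differed by -0.27 and 0.06, with adjusted p (edgeR) of 0.494 and 0.955.

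The genes whose profile over the 6 libraries was closest to that of SLC2A3 were sought among tested genes outside the family by the root mean square difference of log2 CPM after removal of each gene's mean. They were COL3A1 (difference 0.707), a fibrillar collagen, TNFRSF19 (1.28), a TNF receptor family member, TENM3 (1.32), a teneurin, CPLX2 (1.79), a complexin of vesicle release, and CCKAR (1.8), a cholecystokinin receptor. COL3A1 had 478, 680 and 615 counts in sgControl against 2, 0 and 0 in sgRFX6, and TENM3 had 107, 80 and 183 against 0 in each. CPLX2, far more abundant, had 12326 to 24655 counts against 376 to 733.

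For SLC2A1 the closest profiles were those of SLC25A22 (0.0578), a mitochondrial glutamate carrier, DCTPP1 (0.0632), a pyrophosphatase of deoxynucleotides, PSMG3 (0.0638), a proteasome assembly chaperone, WDR90 (0.0653), and F8A1 (0.0659). Their log2 differences lay between 0.53 and 0.66, near the 0.60 of SLC2A1, and none passed edgeR's threshold. These likenesses rest on 6 libraries and follow the difference between the groups.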

How the data were processed

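The deposited table held whole-number read counts per gene for 6 Hep3B libraries, which the authors made from Illumina sequencing of total RNA. The submitters' processing notes name GRCh38 and hg38. The aligner, the counting tool and its strand setting are not given in the sources used here. The control columns are headed cas and were taken as sgControl, and the columns headed sg3 were taken as sgRFX6. One nameless row, at most 9.17e-05% of a library, was left out, and 23 names turned into dates were not repaired.

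Counts were tested with the quasi-likelihood test of edgeR 4.0.16 (R 4.3.3) after filterByExpr (minimum count 10, total 15) and TMM scaling, with Benjamini-Hochberg adjustment over 12839 genes and a threshold of 0.05. Lengths and positions came from GENCODE release 29, in which 15422 names matched directly and 265 through another symbol. Alternatives used DESeq2 1.42.0, limma 3.58.1 (voom with sample quality weights), other scalings and filters, a GC correction, a replicate block, and the omission of each library. The 2 choices added after seeing the data were all 14 SLC2A rows in the sums and sums without SLC2A3 and SLC2A14. Intervals of shares are exact binomial at 95%. The fit was also run on simulated data with 200 changed genes, and the outcome is not reported here. The simulated counts were drawn independently and held no trend with GC content.

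The members and gene lists were chosen with earlier results of these data known. Named genes are all members, RFX6, the list genes called together with set examples of each list (1 of which is not reported here), tested genes within 500 kb of SLC2A3, and the 5 closest profiles to SLC2A3 and to SLC2A1.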

Additional observations from a re-analysis of the deposited data

How the results depend on the processing

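The log2 differences of SLC2A1, SLC2A3, SLC2A6, SLC2A12 and SLC2A14 kept their direction under each alternative that gave a value (a CPM of at least 1 gave none for SLC2A4, SLC2A10 and SLC2A14), SLC2A1 between 0.45 and 0.75, while those of SLC2A4, SLC2A8 and SLC2A10 changed sign. The summed level kept within the spread of the libraries. The SLC2A3 share in sgControl was 15.6% of raw counts. Genes called numbered 480, against 895 with DESeq2, 1429 after GC-trend removal, 3998 with limma-voom, and 212 to 718 without 1 library (lowest without sgControl replicate 3, highest without sgRFX6 replicate 3). The 4 called list genes became 8, 21 and 41 by the same 3 methods and 1 to 11 without 1 library. The cause was not tested. The median of the SLC2A3 neighbours, 1.07, was 0.80 among 4 genes with a CPM of at least 1, 1.31 with limma-voom, 0.20 among 9 genes without a filter, -0.14 for the 1 gene within 100 kb, 0.15 among 18 genes within 1000 kb, and 1.19 to 1.37 without 1 library.

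Deviations of same-numbered libraries correlated at -0.41, 0.17 and -0.09, and 0 libraries correlated best with their own number. The replicate numbers were therefore not treated as pairs in the main fit. With 3 libraries per group, these values cannot show that no pairing exists. A replicate block gave 648 calls, against 480 without it. Low counts limit SLC2A2, SLC2A9 and the sgRFX6 levels of SLC2A3, SLC2A12 and SLC2A14 to bounds.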
